A study of Rattus norvegicus with 74 samples.

Results

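The heat shock proteins and their co-chaperones were 77 protein-coding genes of the 30560 genes in the count tables. They were chosen by gene symbol alone, as the numbered Hspa, Hspb, Dnaja, Dnajb, Dnajc and Bag genes, the Hsp90 genes, Hspd1, Hspe1, Hsph1 and Cryab, and the rule used no measured value. The set held 12 HSP70 and HSP110 chaperones, 9 small heat shock proteins, 3 HSP90 genes, 2 chaperonin genes, the J-domain proteins (4 Dnaja, 13 Dnajb and 28 Dnajc) and 6 Bag genes. The stress-inducible Hspa1a and Hspa1b would match the rule, but no protein-coding gene in the count tables carried those symbols.

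Male Wistar Kyoto rats either ran on a treadmill for 4 weeks from 5 weeks of age (ExT) or were placed on a stationary treadmill (Sed). The trained rats ran 5 days a week, up to 60 min at 20 m/min, and were sampled at 9 weeks of age, 24 h after their final run. All rats, controls included, drank water with 8% deuterium oxide and were anaesthetised with isoflurane. Total RNA came from the whole red inner gastrocnemius (SM, 15 Sed and 15 ExT rats), from mitochondria immunoprecipitated from that muscle and exposed to proteinase-K and RNase-A (MT, 15 and 15), and from the left ventricle (LV, 7 and 7), 74 libraries in all. Each library of a tissue came from a different rat, and a rat's number joined its SM, MT and LV libraries. SM and MT libraries were built with Zymo-Seq RiboFree chemistry from 50 and 10 ng of RNA, and LV libraries with Illumina TruSeq Ribo-Zero from 100 ng.

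Heat shock proteins hold other proteins in a foldable state. HSP70 chaperones bind exposed hydrophobic stretches in cycles of ATP hydrolysis, J-domain proteins deliver clients to them and trigger hydrolysis, and Bag proteins and HSP110 release the nucleotide. Small heat shock proteins bind unfolding clients without ATP, and in striated muscle several of them sit at the sarcomere. HSP60 and HSP10, the products of Hspd1 and Hspe1, form the folding chamber of the mitochondrial matrix. Heat shock factor 1 drives many of these genes under stress, and their protein levels in muscle are known to differ with fibre type and use.

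SM libraries held 19477976 to 39401323 counts, MT libraries 530397 to 9988027 and LV libraries 54645657 to 75758777. CPM were counts scaled to a common library total, and nuclear-encoded CPM were counts scaled to a common total of nuclear-encoded counts. The 8 cardiomyocyte markers summed to between 44690 and 57620 nuclear-encoded CPM in LV and to between 4.65 and 31.4 in SM. The 6 slow-fibre markers summed to between 5184 and 35530 nuclear-encoded CPM in SM. The members together held 0.487% to 1.08% of nuclear-encoded counts in SM, 1.01% to 1.17% in LV and 0.299% to 0.329% in MT. The range over the 30 MT libraries was the narrowest of the 3 and did not overlap the others.

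Training was compared within each tissue with edgeR's quasi-likelihood test over all genes that passed a filter on low counts, and a gene was called at a Benjamini-Hochberg adjusted p under 0.05. In SM, 0 of the 69 members tested were called, where 0.206% of all 13570 genes were (0.184% higher and 0.0221% lower). Leaving out 1 rat moved the count over all genes from 28 to between 12 and 100, the highest without Sed rat 23, where the smallest adjusted p of a member was 0.0556. The smallest adjusted p of a member in edgeR was 0.158, for Hspa12b, an HSP70 relative of endothelial cells, with medians of 25.03 CPM in Sed and 34.28 CPM in ExT muscle. The 6 endothelial markers summed to between 439 and 1001 nuclear-encoded CPM in Sed and between 680 and 1091 in ExT muscle. Their part in the Hspa12b value was not tested. DESeq2 called 0 members too. At an unadjusted p under 0.05 there were 9 members, 13% of those tested, and 13.7% of all genes passed that level. In MT, 0 of 72 members and 0.0% of all genes were called, with 4 members, 5.56%, at an unadjusted p under 0.05 against 4.73% of all genes. In LV, 0 of 71 members and 0.0% of all genes were called, with 11 members, 15.5%, at an unadjusted p under 0.05 against 5.9% of all genes. DESeq2 also called 0 members in MT and in LV.

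The members furthest from equality in whole muscle were small heat shock proteins of the sarcomere. Levels in CPM were scaled anew within each comparison. Hspb6, which is phosphorylated by cyclic-nucleotide-dependent kinases, had a lowest, median and highest level of 248, 506 and 740 CPM in Sed muscle and of 318, 634 and 978 CPM in ExT muscle. The arms overlapped over most of their range. The log2 fold change was 0.44 (SE 0.156, n = 15 and 15; adjusted p = 0.213, edgeR). Markers of smooth muscle, which also expresses Hspb6, summed to between 132 and 460 nuclear-encoded CPM in Sed muscle. In ExT muscle they summed to between 292 and 729 nuclear-encoded CPM, and their part was not tested. Hspb7, a filamin-binding protein of heart and skeletal muscle, had 60.1, 198 and 323 CPM in Sed and 64.2, 250 and 495 CPM in ExT muscle; ExT exceeded Sed by 0.48 on the log2 scale (SE 0.259; adjusted p = 0.413, edgeR). Its highest ExT libraries lay above every Sed library and its lowest ExT library lay among the lowest Sed libraries. Cryab, αB-crystallin, which binds desmin and titin, had medians of 529 CPM in Sed and 526 CPM in ExT, a log2 difference of 0.10 (SE 0.206; edgeR adjusted p = 0.866).

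The general chaperones of whole muscle differed little between the arms. Hspa8, the constitutive cytosolic HSP70, had 400, 492 and 595 CPM in Sed and 437, 534 and 622 CPM in ExT, a log2 difference of 0.05 (SE 0.0619; edgeR adjusted p = 0.762). Hspd1 had 47.2, 60.8 and 82.4 CPM in Sed and 51.9, 63.7 and 77.9 CPM in ExT, a log2 difference of 0.05 (SE 0.0691; edgeR adjusted p = 0.8). The arms overlapped nearly throughout in these 2 genes. Of the 63 members with a mean of at least 5 CPM, 59 had a 95% interval of the log2 fold change wholly within 0.5 of 0. Outside the members, 0 of 72 tested genes of the wider chaperone network (chaperonin CCT and prefoldin, HSP90 and HSP70 co-chaperones, endoplasmic reticulum folding, mitochondrial protein quality control and heat shock factors) were called.

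**Figure D1:**
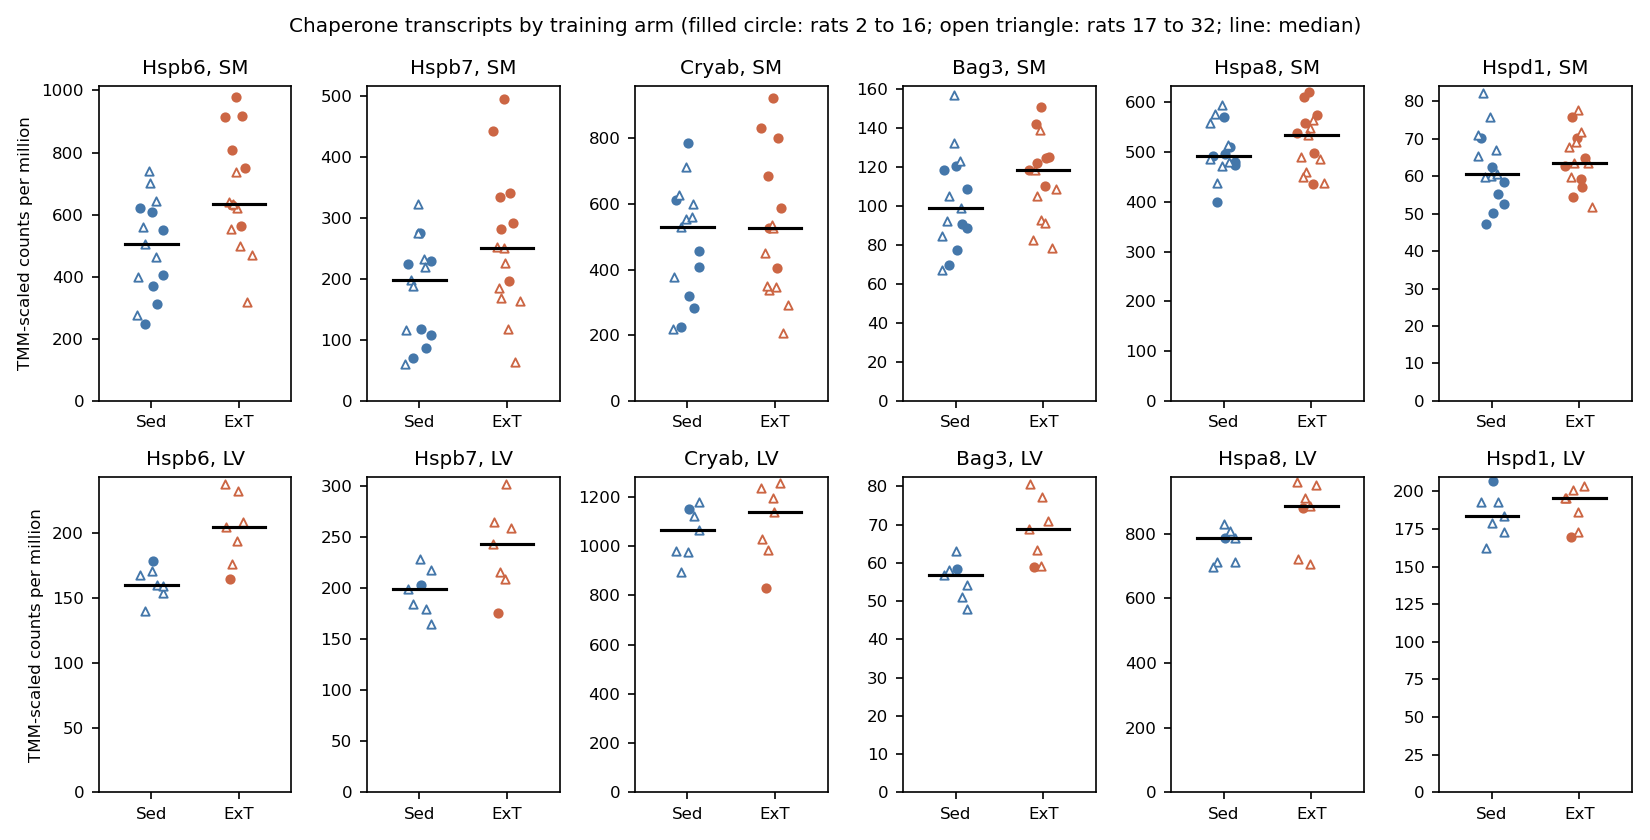
Points are libraries, the y axis is TMM-scaled CPM from 0, the line is the median, and the rows are gastrocnemius (SM) and left ventricle (LV). Sed and ExT points overlap in all 12 panels, with the least overlap for Hspb6 and Bag3 in LV.

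In the left ventricle Hspb6 had the highest log2 fold change and the smallest unadjusted p among the members tested. Hspb6 had 140, 160 and 179 CPM in Sed and 165, 205 and 238 CPM in ExT hearts. The groups overlapped between the highest Sed and the lowest ExT libraries. It was higher in ExT by 0.33 on the log2 scale (SE 0.0772, n = 7 and 7), with an unadjusted p of 0.00048 and an adjusted p of 0.804 in edgeR. Bag3, the scaffold that joins HSP70 to small heat shock proteins for disposal of damaged filamin, had 47.9, 56.8 and 63.1 CPM in Sed and 59.1, 68.8 and 80.7 CPM in ExT hearts. The overlap was again limited to the ends of the ranges. The log2 fold change was 0.30 (SE 0.0757; adjusted p = 0.804, edgeR). Hspb7 had a log2 fold change of 0.28 (SE 0.103) and Hspa8 of 0.17 (SE 0.0732), each with an adjusted p of 0.804 in edgeR. Of the 11 members with an unadjusted p under 0.05, the 3 lower in ExT were Dnajc22 at -0.35 (SE 0.106), Dnajb3 at -0.52 (SE 0.2) and Bag5 at -0.11 (SE 0.0499), also with an adjusted p of 0.804 in edgeR. Dnajc22 and Dnajb3 were low in LV, with means of 3.84 and 0.693 CPM in Sed and 3.01 and 0.483 CPM in ExT hearts. All 61 members with a mean of at least 5 CPM had an interval within 0.5 of 0. In MT, Hspa8 had a log2 fold change of 0.20 (SE 0.0874) and Bag3 of -0.27 (SE 0.131), each with an adjusted p of 1 in edgeR. The difference between tissues in the training effect was called for 0 members, both for MT against SM (77 tested, 0.0181% of all genes called, 0.00361% higher and 0.0144% lower) and for LV against SM (71 tested, 0.0% of all genes called). The difference for LV against SM used only the SM libraries of the rats that had LV libraries. At an unadjusted p under 0.05 there were 5 and 4 members in edgeR, 6.49% and 5.63%, against 8.5% and 4.57% of all genes, and DESeq2 called 0 in each.

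The values in whole muscle differed with the numbers the rats carry. The labels number the SM rats from 2 to 32, and rats 2 to 16 (7 Sed, 7 ExT) and 17 to 32 (8 Sed, 8 ExT) were fitted apart. Among rats 2 to 16, 3 of 69 members were called as higher in ExT, where 2.95% of all genes were called. They were Hspa12b (log2 fold change 0.51, SE 0.0794, adjusted p = 0.00448), Hspa2 (0.71, SE 0.166, adjusted p = 0.0394) and Hspb6 (0.84, SE 0.201, adjusted p = 0.0407), all in edgeR. Hspa2 is an HSP70 best known from the testis. Among rats 17 to 32, 0 members and 0.00732% of all genes were called, and the log2 fold changes of these genes were 0.13, -0.08 and 0.06.

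Hspb7 showed the widest gap between the ranges. Among rats 2 to 16 its median was 118 CPM in Sed and 334 CPM in ExT, and among rats 17 to 32 the medians were 209 and 177 CPM. The log2 fold changes were 1.10 (SE 0.325) and -0.17 (SE 0.322). Cryab had medians of 408 and 685 CPM in the first range and of 557 and 349 CPM in the second. Its log2 fold changes were 0.63 (SE 0.27) and -0.46 (SE 0.222). The direction of both genes thus differed between the ranges. The difference itself, tested as a training by range interaction, was called for 0 members and for 0.0% of all genes in edgeR, with an adjusted p of 0.231 for Cryab and 0.261 for Hspb7. The interaction had an unadjusted p under 0.05 for 21 members (30.4%, against 13.3% of all genes). It was below 0 for 50 members and above 0 for 19, and the labels do not say what the number ranges stand for.

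**Figure D2:**
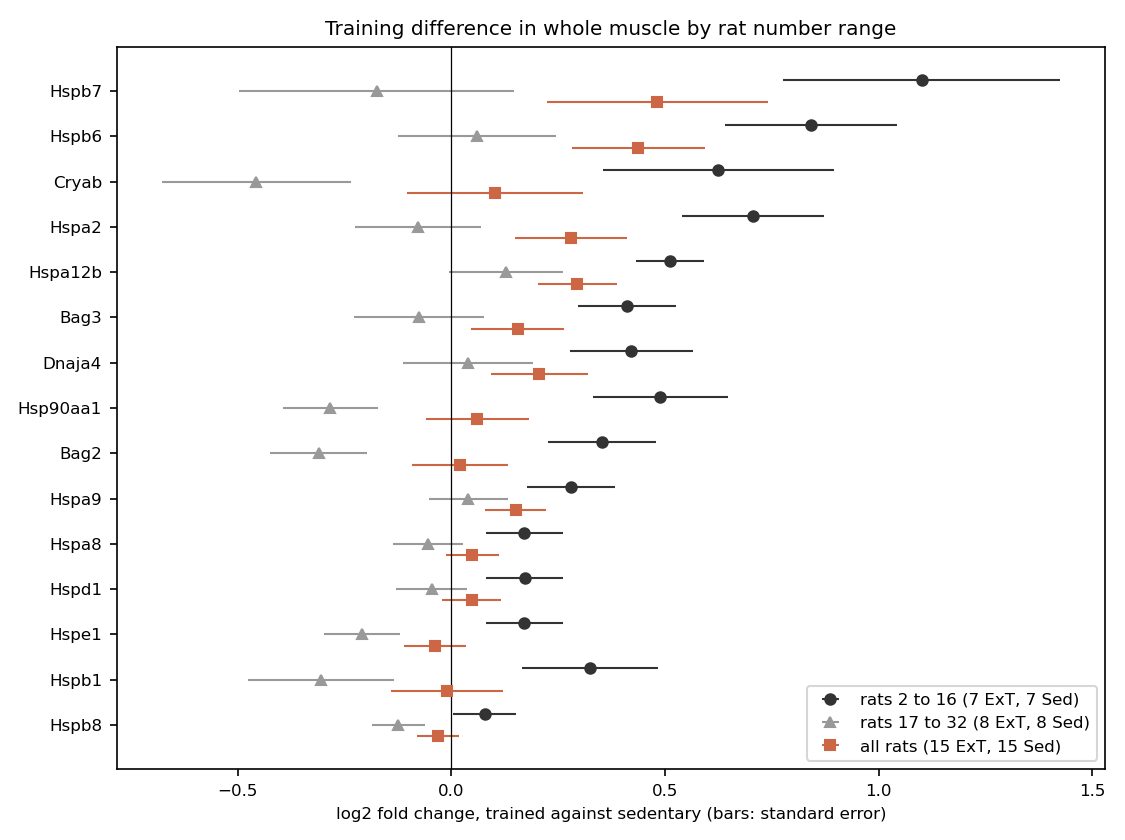
Log2 fold change of ExT against Sed in whole muscle with its standard error, for 15 members chosen after their values were seen. The 7 against 7 comparison of rats 2 to 16 lies to the right of the 8 against 8 comparison of rats 17 to 32 for each gene drawn, as it did for 50 of all 69 members by the interaction.

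The level of slow-fibre genes moved with these chaperones from rat to rat. The slow-fibre index was the mean log2(CPM + 0.5) of Myh7, Tnnt1, Tnni1, Myl3, Myl2 and Tnnc1, contractile genes of slow fibres, and the relation was examined after the values had been seen. The index was 9.51 ± 0.874 in Sed and 9.92 ± 0.749 in ExT muscle (SD, n = 15 each). Its means were 9.30 (Sed) and 10.37 (ExT) among rats 2 to 16, and 9.69 and 9.52 among rats 17 to 32. The index therefore had the same order of groups as Hspb7 and Cryab in each range. In bulk muscle, fewer fibres of a type and less RNA per fibre cannot be told apart.

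Across the 30 rats the sarcomeric small heat shock proteins followed the index most closely. Cryab had a Pearson r of 0.94 (Spearman rho 0.92), Hspb7 of 0.93 (rho 0.88) and Hspb6 of 0.91 (rho 0.83), each with a permutation p of 1e-05, the smallest the permutations can give, and an adjusted p of 0.000249. Without the 2 rats furthest from the median index, r was 0.91, 0.89 and 0.88. Within the Sed rats r was 0.98, 0.94 and 0.90, and within the ExT rats it was 0.93, 0.91 and 0.95. Within rats 2 to 16 it was 0.95, 0.92 and 0.94, and within rats 17 to 32 it was 0.92, 0.93 and 0.88. The relation of these 3 genes held in each arm and each range. A rise of 1 in the log2 index went with a rise of 0.66 in log2 Cryab, 0.88 in Hspb7 and 0.56 in Hspb6.

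Among 69 members tested by permutation with adjustment over 13564 genes, 22 rose and 3 fell with the index, 36.2% in all, where 23.5% of all genes were called (12.1% rose and 11.4% fell). Scaled by library totals alone, 17 rose and 5 fell, where 24.1% of all genes were called. After the 3 small heat shock proteins came Hspa2 (r 0.82), Dnaja4 (0.82), the cytosolic J-domain partner of HSP70, Bag3 (0.77), Hspa9 (0.77), the mitochondrial matrix HSP70 that pulls proteins through the inner membrane, Bag2 (0.72), an inhibitor of ubiquitin ligation by CHIP, and Dnaja3 (0.72), the mitochondrial J-domain protein. The 3 that fell were Dnajb14 (r -0.66), a J-domain protein of the endoplasmic reticulum membrane, Dnajc21 (-0.53), which acts in ribosome assembly, and Dnajc25 (-0.46). Within rats 17 to 32 alone 5 members were called (3.02% of all genes) and within rats 2 to 16 alone 23 (18.9%).

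Other members had lower correlations with the index. Hspb8, the small heat shock protein that partners Bag3, had an r of 0.14 with an adjusted p of 0.616 by permutation, Hspa8 an r of 0.42 with an adjusted p of 0.0739, and Hspd1 an r of 0.42 with an adjusted p of 0.0727. Hspe1 had an r of 0.31 with an adjusted p of 0.227. Without the 2 rats furthest from the median index r was 0.07 for Hspb8, 0.56 for Hspa8, 0.60 for Hspd1 and 0.39 for Hspe1, and within rats 2 to 16 it was 0.23, 0.61, 0.78 and 0.61. With the index as a covariate in the edgeR fit of training, 0 members and 0.133% of all genes were called, with 6 members, 8.7%, at an unadjusted p under 0.05 against 10.7% of all genes. The log2 fold change of Hspb7 was then 0.15 (SE 0.108), that of Hspb6 0.23 (SE 0.0676) and that of Cryab -0.19 (SE 0.0704), with adjusted p of 0.652, 0.187 and 0.316 in edgeR. Cryab thus changed sign between the fits, and none of the 3 passed the threshold in either.

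**Figure D3:**
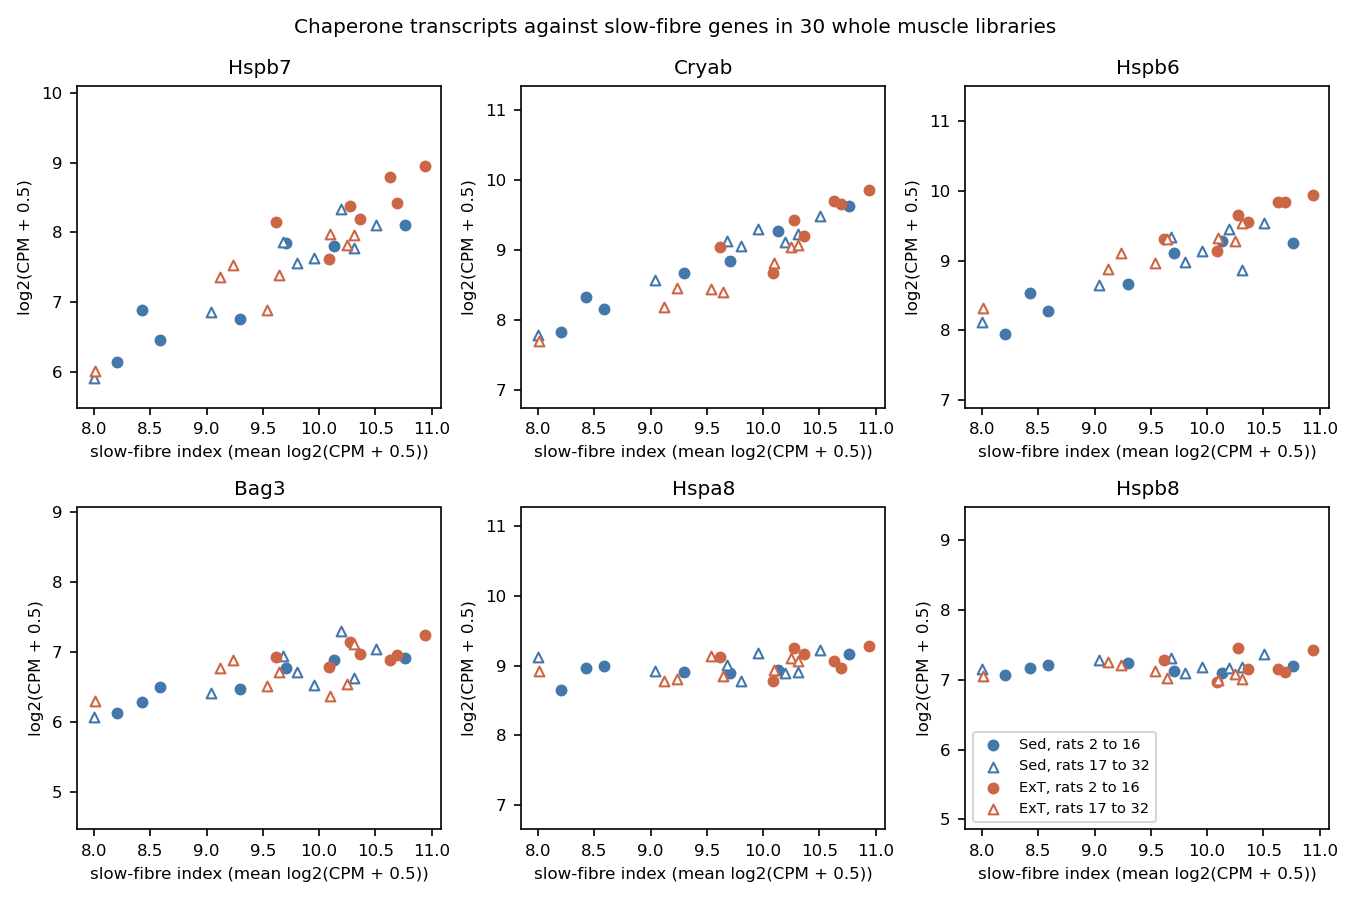
Each point is 1 of 30 gastrocnemius libraries, with the slow-fibre index on the x axis and a chaperone's log2(CPM + 0.5) on the y axis, all panels spanning the same number of log2 units. Hspb7, Cryab and Hspb6 rise along the index in both arms and both number ranges, and Hspb8 stays level.

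The upstream sequences of these genes were read from RefSeq (build GRCr8), in the 250 bases before each annotated start, for the 61 of 77 members matched by symbol. The heat shock element is made of inverted GAA units. The letters GAANNTTC, 2 such units head to head, stood in 7.23% of all 33469 windows and in those of 14 members, and the same letters followed by NNGAA, 3 units, searched on both strands, in 0.663% of windows and in those of 4 members (Hspa8, Hsph1, Hspd1 and Hspe1). The letters TTCNNGAA, 2 units tail to tail, stood in 7.48% of windows and in those of 7 members. The 3-unit element contains both pairs. The MEF2 core, CTA and TAG with 4 bases between them, is bound by MEF2 factors of muscle. It stood in 3.41% of windows and in those of 4 members, Hspb7, Hspb3, Dnajc1 and Dnajb3. Of these, Dnajb3 had 0.354 nuclear-encoded CPM in SM, and Dnajc1 had an r of -0.27 with the index (adjusted p = 0.302 by permutation). The stretches below were picked by hand among genes that followed the slow-fibre index and had a match, with the letters marked differing by gene. Of the other members that rose with the index, Hspa9, Hspb1 and Dnajb1 had GAANNTTC, Hspa2 and Dnajc27 had TTCNNGAA, and Hspb3 had the MEF2 core. These are not shown. The rest, Cryab among them, had no match listed, which can also mean that no window was searched, as for 16 of the 77 members. The choice therefore shows no link between the letters and the index. Capitals mark GAANNTTC or TTCNNGAA in Hspb6 and Bag3 and the MEF2 core in Hspb7. Such matches describe the letters and show no binding.
Hspb6, chr1:94934122-94934265, plus strand: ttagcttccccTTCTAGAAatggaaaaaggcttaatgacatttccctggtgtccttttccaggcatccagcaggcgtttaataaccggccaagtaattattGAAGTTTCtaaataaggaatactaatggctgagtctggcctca
Bag3, chr1:192533293-192533370, plus strand: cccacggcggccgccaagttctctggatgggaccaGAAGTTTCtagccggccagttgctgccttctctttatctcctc
Hspb7, chr5:159010628-159010707, plus strand: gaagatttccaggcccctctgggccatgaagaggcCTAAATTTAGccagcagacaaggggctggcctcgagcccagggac

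Levels of many chaperones differed between the left ventricle and the gastrocnemius, about as often as those of other genes. LV and SM libraries of the same 7 rats per arm were compared. In Sed rats 57 of 71 members were called, 19 higher and 38 lower in LV, where 78.7% of all genes were called (40.0% higher, 38.6% lower). In ExT rats 57 of 71 were called, 22 higher and 35 lower, where 79.3% of all genes were called (39.7% higher, 39.5% lower). The share of members called was near that of all genes. The median log2 fold change of the members was -0.32 in Sed and -0.10 in ExT, and that of all genes was 0.04 and 0.01. Scaled by library totals alone, the split was 29 higher and 30 lower in Sed and 30 and 32 in ExT, with the median of all genes shifted by 0.24 and 0.20. Library kit, RNA input and depth differed with the tissue, and their part in these differences cannot be told apart from it.

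The mitochondrial chaperonin was split. Hspd1, the HSP60 barrel, had 63.1, 68.9 and 87.3 CPM in Sed SM and 148, 168 and 194 CPM in Sed LV, and its partner Hspe1, the HSP10 lid, had 54.3, 71.2 and 90.3 CPM in SM and 27.2, 32.1 and 36.6 CPM in LV. The tissues did not overlap for either gene, and the directions were opposite. The log2 fold changes were 1.27 (SE 0.0788, adjusted p = 1.5e-11) and -1.12 (SE 0.0961, adjusted p = 2.33e-09) in Sed, and 1.33 (SE 0.0798, adjusted p = 8.72e-12) and -0.89 (SE 0.0758, adjusted p = 1.95e-09) in ExT, in edgeR. Of the 10 mitochondrial chaperones in the set, 2 were higher and 5 lower in Sed and 3 higher and 5 lower in ExT, and with library totals 5 were higher and 4 lower in each arm. Hspa9 was higher by 0.24 (SE 0.0753, adjusted p = 0.00665) and 0.31 (SE 0.0848, adjusted p = 0.00255), and Dnaja3 was lower at -0.42 and -0.35.

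Hspd1 and Hspe1 lie head to head, and the 289 bases between their annotated starts are shown because the 2 genes share them and differed in opposite directions. Read on the strand of Hspe1, the stretch begins beside the Hspd1 start. Capitals mark the heat shock element letters. They hold 2 overlapping matches to the 3-unit element, whose first bases lie 65 and 60 bases before the Hspe1 start and, read on the other strand, 242 and 237 bases before the Hspd1 start.
Hspd1 to Hspe1, chr9:64084038-64084326, plus strand: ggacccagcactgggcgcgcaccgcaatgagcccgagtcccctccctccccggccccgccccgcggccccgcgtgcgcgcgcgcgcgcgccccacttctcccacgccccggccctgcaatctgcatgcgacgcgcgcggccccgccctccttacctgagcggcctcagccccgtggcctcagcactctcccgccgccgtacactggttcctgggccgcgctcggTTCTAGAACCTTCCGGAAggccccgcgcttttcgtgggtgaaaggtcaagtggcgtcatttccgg

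The small heat shock proteins split as well. With TMM, of 7 such proteins of muscle, 1 was higher and 3 lower in LV in Sed rats, and 3 and 3 in ExT rats. With library totals 3 were higher and 3 lower in each arm. Cryab had 397, 589 and 665 CPM in Sed SM and 815, 970 and 1082 CPM in Sed LV, and was higher in LV by 0.74 (SE 0.105, adjusted p = 2.69e-06) in Sed and 1.11 (SE 0.15, adjusted p = 1.81e-06) in ExT, in edgeR. Hspb6 had 423, 595 and 744 CPM in SM and 127, 149 and 168 CPM in LV, a log2 difference of -1.98 (SE 0.111, edgeR adjusted p = 2.94e-12), and in ExT of -1.85 (SE 0.109, edgeR adjusted p = 7.18e-12). Neither gene's tissues overlapped. Hspb1, HSP27, which caps actin filaments, was lower at -1.40 (SE 0.154) and -1.28 (SE 0.113), and Hspb3 at -0.63 and -0.47. Cryab and Hspb6 rose together along the slow-fibre index within muscle and differed in opposite directions between the tissues.

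Among HSP70 genes, 7 were higher and 4 lower in LV in each arm, of 12. Hspa4l, an HSP110 relative, had 1.36, 2.33 and 2.72 CPM in Sed SM and 17.2, 18.4 and 20.3 CPM in Sed LV. It was the highest member, at 3.16 (SE 0.129, adjusted p = 2.6e-14) in Sed and 2.92 (SE 0.113, adjusted p = 1.1e-14) in ExT. Hspa5, BiP, the HSP70 of the endoplasmic reticulum, had 128, 149 and 169 CPM in SM and 224, 253 and 273 CPM in LV, with log2 fold changes of 0.76 (SE 0.076) and 0.94 (SE 0.0761). Its upstream sequence in RefSeq held the endoplasmic reticulum stress element, CCAAT and CCACG with 9 bases between them, as did Hsp90b1 and Dnajc3, 3 of 61 members and 0.0657% of all windows; Hspa5 is shown with the element in capitals.
Hspa5, chr3:38452938-38453015, plus strand: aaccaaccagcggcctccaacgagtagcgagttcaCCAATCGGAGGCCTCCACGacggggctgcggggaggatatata
Hspa14, which works at the ribosome, was higher by 0.92 and 1.13. Hspa8 was higher by 0.43 (SE 0.0758) and 0.57 (SE 0.0936) and had no overlap between the tissues in either arm. At the other end, Hspa2 had 12.9, 15.4 and 21.3 CPM in Sed SM and 1.28, 1.39 and 1.70 CPM in Sed LV, with log2 fold changes of -3.57 (SE 0.121) and -3.63 (SE 0.147). Hspa1l, a non-inducible HSP70, was lower at -3.36 and -3.30.

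Among J-domain and Bag genes the split between the tissues depended in part on the scaling. With TMM in Sed rats 4 of 4 tested Dnaja, 6 of 10 Dnajb, 15 of 26 Dnajc and 4 of 6 Bag genes were lower in LV, and 0, 2, 5 and 1 were higher. In ExT rats 3, 6, 14 and 4 were lower and 0, 1, 5 and 2 higher. With library totals in Sed rats 3, 6, 10 and 4 were lower and 0, 4, 10 and 1 higher. Dnajb5, known for its part in class II histone deacetylase regulation in the heart, had 144, 177 and 206 CPM in Sed SM and 19.5, 20.5 and 22.5 CPM in Sed LV, and its log2 fold changes were -3.07 (SE 0.0816, adjusted p = 3.61e-17) and -2.88 (SE 0.0898, adjusted p = 3.81e-16) in edgeR. Dnajc21 was lower at -2.72 and -2.80, and Dnajc2, which acts at the ribosome exit, at -1.83 and -1.77. Bag3 was lower at -1.20 (SE 0.113) and -0.90 (SE 0.105). Dnajc5, the cysteine-string protein of secretory vesicles, was higher by 0.78 (SE 0.0504) and 0.70 (SE 0.0484). Of 72 tested genes of the wider network, 30 were higher and 29 lower in Sed and 31 and 29 in ExT. Those with the smallest adjusted p were Cdc37, which loads kinases onto HSP90 (-2.29 and -2.34), Synpo2, a partner of Bag3 in filamin turnover (-2.74 and -2.61), and the prefoldin subunits Pfdn6 (-2.68 and -2.74) and Pfdn2 (-3.30 and -3.16).

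**Figure D4:**
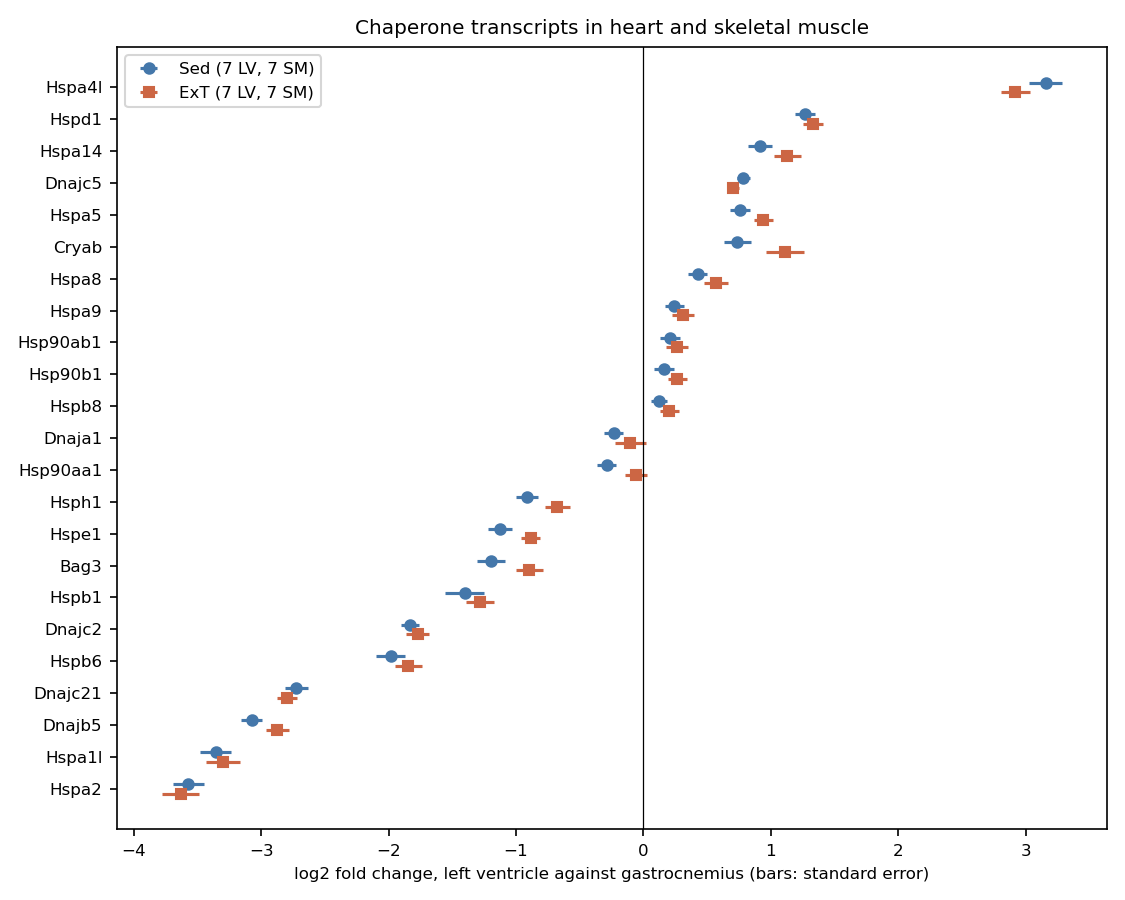
Log2 fold change of left ventricle against gastrocnemius with its standard error in Sed and in ExT rats, 7 and 7 libraries each, for the members named by rule or on the core list. Hspd1 and Hspe1, and Cryab and Hspb6, lie on opposite sides of 0 in both arms.

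How many chaperone genes were lower in the mitochondrial isolate than in whole muscle depended on the scaling, while Cryab, Hspb6, Hsp90ab1, Hspb7, Hspb1 and Hspa8 were lower under each scaling run. In Sed rats 74 of 77 members were called, 12 higher and 62 lower in MT, where 94.8% of all genes were called (61.7% higher, 33.1% lower). In ExT rats 74 of 76 were called, again 12 higher and 62 lower, where 94.3% of all genes were called. The median log2 fold change of the members was -1.94 in Sed and -1.93 in ExT, and that of all genes was 1.81 and 1.31. With the 2 members listed at 0 in SM held at their bound, the medians were the same. Scaled by library totals alone, 25 members were called higher and 36 lower in Sed, and 21 and 33 in ExT, with the median of all genes shifted by 1.62 and 1.61, and in CPM of nuclear-encoded counts 36 members were lower and 41 higher. In each arm 19 of the 74 called members changed sign under library totals, and 10 in Sed and 7 in ExT were called in the new direction.

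The lowest members in MT were small heat shock proteins of muscle and cytosolic chaperones. Cryab had 360, 850 and 1329 CPM in Sed SM and 2.704, 4.41 and 10.72 CPM in Sed MT, a log2 difference of -7.39 (SE 0.233, edgeR adjusted p = 3.01e-24). Hspb6 was at -6.86 (SE 0.204), the constitutive Hsp90ab1 at -6.40 (SE 0.115), Hspb7 at -5.73 (SE 0.278), Hspb1 at -5.29 (SE 0.169) and Hspa8 at -5.18 (SE 0.0991). No library of SM and MT overlapped for these genes. RNAs that encode mitochondrial chaperones were lower for 10 of 10 genes in each arm with TMM, where 33.1% and 35% of all genes were, and for 7 of 10 with library totals. In nuclear-encoded CPM 7 were lower and 3 higher. Hspa9 had 264, 388 and 485 CPM in SM and 10.2, 14.3 and 15.9 CPM in MT, at -4.86 (SE 0.0934), Hspe1 was at -5.00 (SE 0.12) and Hspd1 at -3.32 (SE 0.103). With TMM, 7 of 7 small heat shock proteins of muscle were lower in each arm, and 6 of 7 with library totals. Of 13 chaperones of the endoplasmic reticulum, 13 were lower with TMM, but with library totals 4 were higher and 5 lower in Sed and 3 and 4 in ExT, so their direction depended on the scaling. With TMM, 64 of 73 genes of the wider network were lower and 8 higher in Sed rats.

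Of 11 members known from germ cells and cilia, 8 were higher and 3 lower in MT in Sed rats, and 7 were higher and 3 lower of 10 tested in ExT rats, where 61.7% and 59.3% of all genes were higher. Several of them were at or near 0 in SM and passed the filter through MT, so the counts are a description. Dnajb8, a testis J-domain protein, had 0 counts in all 15 Sed SM libraries and 355 counts over 15 of 15 Sed MT libraries, and was at least 199-fold higher in nuclear-encoded CPM, against a floor of 3 counts per SM library. In ExT it was at least 185-fold higher. Dnajc5b, a testis relative of cysteine-string protein, was likewise at 0 in SM and at least 70.5-fold and 100-fold higher in MT. Dnajc6, auxilin, which uncoats clathrin vesicles in neurons, had 0.111, 0.367 and 0.809 CPM in SM and 19.8, 25.8 and 30.1 CPM in MT, a log2 fold change of 6.01 (SE 0.147). Dnajb13, of cilia and sperm flagella, had 366 counts in Sed MT and 16 in Sed SM, a ratio of 581 in nuclear-encoded CPM (95% counting interval 353 to 1030). Dnajc5g had 269 counts in Sed MT and 1 in Sed SM, a ratio of 6830 (1220 to 271000). In ExT the ratios were 4760 (1310 to 39500, 2 counts in SM) for Dnajb13 and 1350 (571 to 4200, 5 counts in SM) for Dnajc5g, and these intervals cover counting error only. Hspa4l (1.90, SE 0.128) and Hspb11 (2.00, SE 0.154), an intraflagellar transport subunit, were higher without being near 0 in SM.

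Receptor genes of the nose were also higher in MT. The 1216 odorant and vomeronasal receptor genes held 1.35% to 1.95% of nuclear-encoded counts in the MT libraries and 0.000766% to 0.00156% in the SM libraries, and 721 of them were at 0 over SM and 8 over MT. Over the 77 members the median level was 37.3 CPM of nuclear-encoded counts in SM and 35.4 in MT, and the 10th to 90th percentile ran from 1.03 to 215.6 CPM in SM and from 15.7 to 69.0 CPM in MT. Across members, as a description over genes and not replicates, the rank correlation of level with SM was 0.335 for MT and 0.909 for LV, where over 23083 nuclear-encoded protein-coding genes it was 0.638 and 0.941, and that with the genomic span of the gene in RefSeq was 0.424 for MT and -0.037 for SM (n = 76). Whether these properties have a part in the low and high members of MT was not tested. The strand setting of the counting is not given in the sources used here, so whether reads of overlapping and antisense genes were kept apart is not known.

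**Figure D5:**
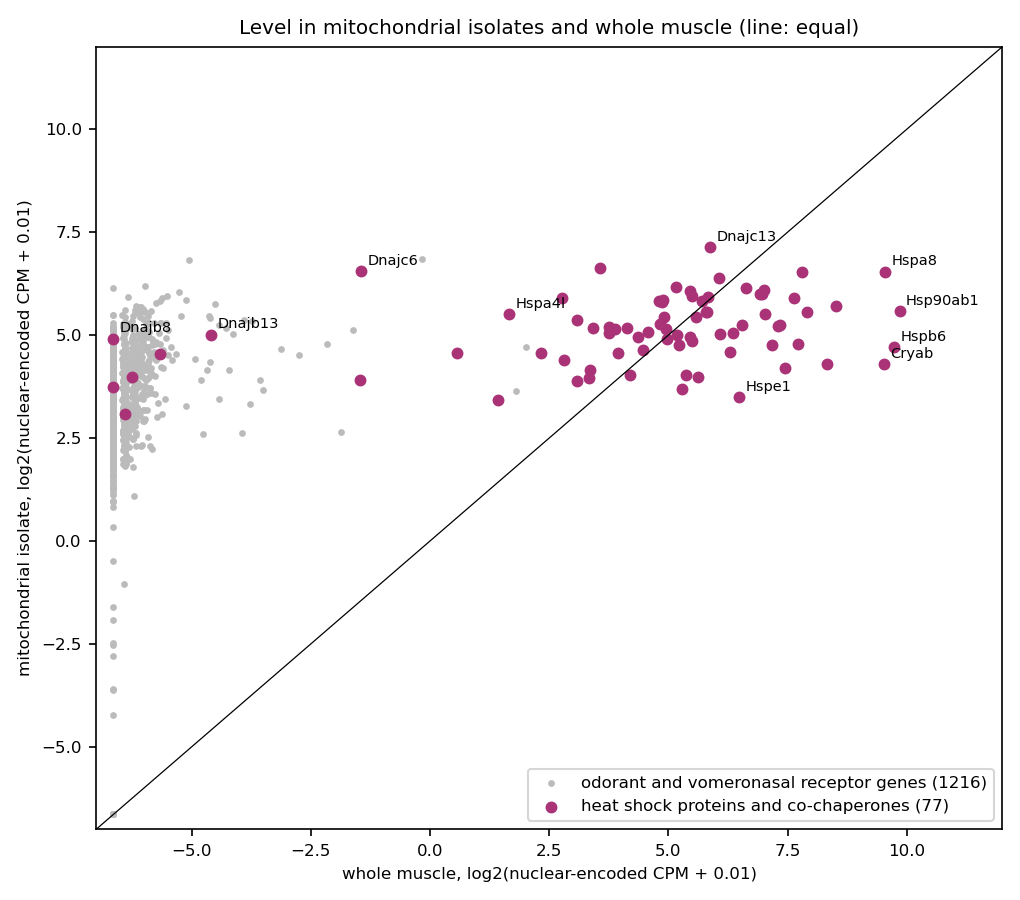
Level of each gene in the mitochondrial isolates (y axis) against whole muscle (x axis), both as log2 of CPM of nuclear-encoded counts plus 0.01 over 30 libraries each, with the line of equal level. The 10th to 90th percentile of the members runs from 1.03 to 215.6 CPM in muscle and from 15.7 to 69.0 CPM in the isolates.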

How the data were processed

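Gene counts per library were deposited by the authors as raw read counts; per the submitters' processing notes the tools were FastQC 0.74, cutadapt 4.6, STAR 2.7.11a and HTSeq, with build mRatBN7.2. The annotation version and strand setting are not given in the sources used here. Counts were tested with edgeR 4.0.16 (R 4.3.3, limma 3.58.1; TMM, robust quasi-likelihood, filterByExpr with a minimum count of 10), adjusted over all genes tested, and with DESeq2 1.42.0 as an alternative. Scripts were tested on simulated data. Correlations used 100000 permutations (Python 3.11.15, scipy 1.17.1).

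The rule for the members used gene symbols alone, but this gene group and the other lists were picked with earlier results of these data known. Named were called members with a mean of at least 5 CPM (the 6 highest and 6 lowest per tissue comparison), a core list, and up to 4 genes of the wider network; others were chosen after their values were seen. Rat numbers pair libraries between tissues because the same rat gave them; the median correlation of same-rat deviations was 0.0157 for MT with SM and 0.0498 for LV with SM. Sed and ExT rats share no number. The smallest chi-square per degree of freedom between libraries of a group was 1.2 in ExT MT and 1.48 in Sed MT. In the SM and LV groups it was between 13.5 and 22.9. No libraries were merged. Alternatives were other scalings, filters, thinning, left-out rats, number ranges and the replicate block.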

Additional observations from a re-analysis of the deposited data

How the results depend on the processing

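Of 151 alternative counts of called members, 145 stayed within 1.5 times the reported count. Of these, 74 were leave-one-out training fits that set 0 against 0. The other training and interaction alternatives, rats 2 to 16 in SM apart, also set 0 against 0. Only the total called was compared, not its direction. In Sed rats MT against SM thus stayed within 1.5 times under library totals, though 12 higher and 62 lower became 25 and 36. Training in SM called 3 members in rats 2 to 16 alone, where 2.95% of all genes were called. MT against SM called 46 of 54 tested members in Sed and 38 of 47 in ExT when libraries were thinned to the smallest total. Fewer genes could be tested there, and 85.1% and 82.6% of all genes tested were called. The slow-fibre index, whose alternatives were chosen after seeing the data, called 13 members in Sed rats alone, where 8.53% of all genes were called. It called 10 in ExT rats alone (8.01% of all genes) and 5 in rats 17 to 32 alone (3.02%), with fewer rats in each. Leaving out 1 rat at a time (74 fits) gave counts from 0 to 0 in each training comparison. With the rat as a replicate block, MT against SM called 74 members in each arm, where 94.7% (Sed) and 94.2% (ExT) of all genes were called. LV against SM with the block called 60 in Sed and 58 in ExT, where 77.8% and 78.3% of all genes were called. Both differences in training effect called 0 members, and no call count moved by over 1.5 times with the block. Over all 74 called members of MT against SM, 19 in each arm changed sign under library totals. Of those, 10 in Sed and 7 in ExT were called in the new direction. The named members were called genes picked in part for the highest and lowest fold changes, which favours a stable direction. Of 755 alternative values of these named members, 747 kept direction and side of the threshold, 4 lost the call and 4 reversed. Under library totals alone Dnajb1 in MT against SM was 0.63 in Sed and 0.97 in ExT, and Dnaja1 in LV against SM in Sed was 0.002. Hsph1 in MT against SM in ExT was 0.27 when thinned. The cause was not tested. MT depth, down to 530397 counts, limits what small differences could be detected there.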
